A study of Mus musculus with 6 samples.

Results

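The genes Slc22a3, Slc22a4, Slc22a5, Slc29a4 and Slc47a1, which encode transporters of organic cations, were examined in the cochlea. They were found by symbol, and all 5 were present among the 24411 genes listed for each library. The set was built around Slc22a3, which was selected on its log2 fold change between Kir2.1-OE and control mice, one of the lowest of the series. The difference of Slc22a3, and the comparison it comes from, are therefore given here as a description. The calls of the 5 genes in that comparison are stated beside their values and carry no weight as tests, and no p-values are given for them. The other 4 genes were taken for what they encode.

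The libraries came from the dissected sensory epithelium at P9. Kir2.1-OE mice carried 1 copy of Otof rtTA, a doxycycline-dependent activator driven by the Otof promoter, and 1 copy of a tetO Kir2.1-IRES-tau-lacZ transgene. Control mice (labelled WT) were littermates that carried Otof rtTA without the Kir2.1 transgene, and both received 0.5 mg/ml doxycycline in the drinking water. Each group held 3 pools of 8 cochleae from 4 mice, so that the pool is the replicate. The Otof promoter acts in hair cells and mainly in inner hair cells (IHCs), whereas the RNA was that of the whole dissected tissue.

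Organic cations are small, positively charged molecules such as serotonin, noradrenaline, dopamine, histamine, choline and many drugs, which cross the cell membrane only with the help of a carrier. Slc22a3 encodes the extraneuronal monoamine transporter OCT3, a carrier of low affinity and high capacity that clears monoamines and histamine away from nerve endings. Slc29a4 encodes the plasma membrane monoamine transporter PMAT, which does similar work and belongs to the family of equilibrative nucleoside transporters. Slc22a4 and Slc22a5 encode OCTN1, a carrier of the antioxidant ergothioneine, and OCTN2, the sodium-dependent carrier that brings carnitine into cells for the oxidation of fatty acids. Slc47a1 encodes MATE1, which exports organic cations in exchange for protons and is best known from kidney and liver.

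Between 35430940 and 41205047 reads were assigned to genes per library. Kcnj2, which encodes Kir2.1, had from 2213 to 3813 normalized counts in the Kir2.1-OE pools and from 226 to 236 in the controls, so each library followed its label. A normalized count is the number of reads assigned to a gene, scaled so that the libraries can be compared. All 6 hair cell markers examined were detected, with a sum of 13910 to 14850 normalized counts in Kir2.1-OE pools and 11170 to 11930 in controls. Otof (means of 3787 and 2232) and Myo7a (1898 and 841.5) were higher in the Kir2.1-OE pools. For Pou4f3, Gfi1, Slc17a8 and Pvalb the groups overlapped. Once trends with transcript length and GC content were removed, as described below, Otof and Myo7a had log2 fold changes of -0.077 and 0.334. Control replicate 1 stood apart from the other controls in markers of other tissue. The sum of its 5 erythrocyte genes was 44660 normalized counts, against 17950 and 17920 in control replicates 2 and 3, and that of its 5 cartilage and bone genes was 31270, against 84080 and 119500. In the bulk tissue, fewer cells of a type and less RNA per cell cannot be told apart.

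The 250 bases before the transcription start of the SLC22 members are shown because those of Slc22a4 and Slc22a5 held many more CG dinucleotides than that of Slc22a3. The sequences are from RefSeq (GRCm38.p6, which is mm10), 5′ to 3′ on the strand of the gene, and capitals mark each CG dinucleotide.
Slc22a3 (chr17:12507705-12507954, minus strand): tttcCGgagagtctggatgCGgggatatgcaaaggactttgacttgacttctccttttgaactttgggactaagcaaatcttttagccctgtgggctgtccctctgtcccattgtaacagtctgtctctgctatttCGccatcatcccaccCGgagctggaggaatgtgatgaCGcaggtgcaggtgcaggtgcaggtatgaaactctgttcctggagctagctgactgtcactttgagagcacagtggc
Slc22a4 (chr11:54028105-54028354, minus strand): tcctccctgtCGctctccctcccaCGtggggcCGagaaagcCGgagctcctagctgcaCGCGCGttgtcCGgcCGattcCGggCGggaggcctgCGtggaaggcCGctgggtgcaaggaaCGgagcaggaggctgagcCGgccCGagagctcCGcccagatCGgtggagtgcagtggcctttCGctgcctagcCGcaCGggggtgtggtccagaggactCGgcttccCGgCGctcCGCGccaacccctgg
Slc22a5 (chr11:53891704-53891953, minus strand): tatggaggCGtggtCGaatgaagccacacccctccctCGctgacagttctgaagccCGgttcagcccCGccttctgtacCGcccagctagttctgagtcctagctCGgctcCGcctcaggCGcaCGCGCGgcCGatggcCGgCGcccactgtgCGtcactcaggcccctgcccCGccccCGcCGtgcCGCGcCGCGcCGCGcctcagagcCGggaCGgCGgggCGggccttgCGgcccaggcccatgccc
The window of Slc22a3 held 5 CG dinucleotides and 51.2% G and C. That of Slc22a4 held 26 CG and that of Slc22a5 30, with 71.2% and 73.6% G and C. The window of Slc29a4 had a count in between, 16 CG. That window runs from 142701851 to 142702100 on chromosome 5. It precedes a RefSeq start that lies inside the span annotated for the gene, 142692512 to 142722490. Over all 32851 RefSeq windows of this length the median was 6 CG, and 49.6% of windows had as few as Slc22a3. For Slc22a4 and Slc22a5 this share was 91.4% and 94.8%, so theirs were the unusual windows. A link between these windows and the levels of the genes was not tested. The letters GGGCGG, read on both strands, were present in the windows of Slc22a4, Slc22a5 and Slc29a4, absent from that of Slc22a3 and present in 32.7% of all windows. The letters TATAAA, also read on both strands, were found for Slc29a4 alone among these 4 genes and in 12.4% of all windows.

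Slc22a3 (ENSMUSG00000023828.3) lies on chromosome 17 of mm10 from 12418960 to 12507704, on the minus strand. Its normalized counts were 543, 326 and 151 in control replicates 1 to 3 and 72.9, 54.0 and 83.6 in Kir2.1-OE replicates 1 to 3. Every Kir2.1-OE pool was below every control pool, and the lowest control was 1.80 times the highest Kir2.1-OE pool. The means were 340 ± 196 (SD, n = 3 pools) in controls and 70.1 ± 15.0 (SD, n = 3) in Kir2.1-OE mice, a 4.85-fold difference. The log2 fold change was -2.28 (standard error 0.410), the sixth lowest of the 15303 genes tested (rank 6) and the lowest (rank 1) of the 13645 genes with a mean of at least 50 normalized counts. By the rule used for all genes, an adjusted p-value under 0.05 with a change of more than 1.5-fold, Slc22a3 was called lower. It was the only 1 of the 5 members called, in a comparison in which 20.5% of all genes tested were called and 5.08% were called lower. Slc22a3 and Slc22a5 were the 2 members whose groups did not overlap, both with the Kir2.1-OE pools below, where the groups did not overlap for 61.6% of all genes, 29.9% with Kir2.1-OE below and 31.7% above. Since the comparison itself chose Slc22a3, nothing is read from these shares.

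The controls differed from each other in Slc22a3 far more than the Kir2.1-OE pools did. Control replicate 1 had 3.6 times the level of control replicate 3, and only 0.359% of genes with a mean of at least 50 had a wider range over the controls, where the median ratio was 1.16. The corresponding ratio between the Kir2.1-OE pools was 1.55. The size of the difference therefore depended on which control was used. Without control replicate 1 the log2 fold change was -1.77 (standard error 0.324), and without control replicate 3 it was -2.63 (standard error 0.259). Long transcripts tended to be higher in the Kir2.1-OE libraries, and the 4644 genes with a longest transcript between 3302 and 5159 nt, around the 4127 nt of Slc22a3, had a median log2 fold change of 0.11, against -0.16 for the 3204 genes around the 2263 nt of Slc22a4. After the trends with length and GC content were taken out of each library, a setting termed the length and GC offsets, Slc22a3 had -2.48.

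**Figure D1:**
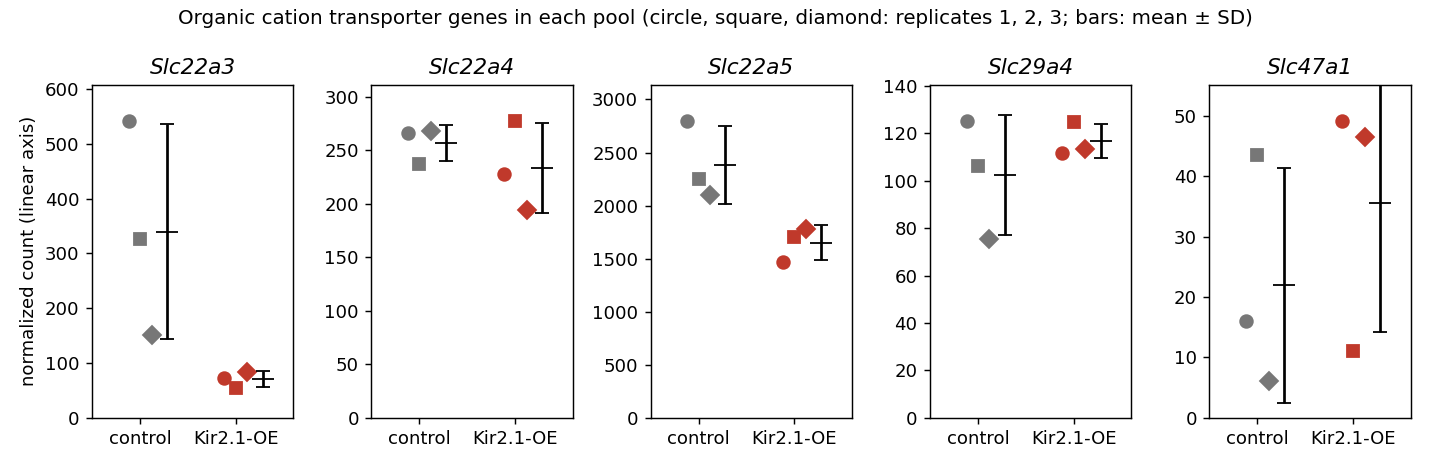
Normalized counts (vertical axis, linear and starting at 0, a scale for each gene) of the 5 transporter genes in the 3 control (grey) and 3 Kir2.1-OE (red) pools; bars give the mean ± SD. The Slc22a3 points lie between 151 and 543 in controls and between 54.0 and 83.6 in Kir2.1-OE mice, Slc22a5 is the other gene without overlap, and the groups overlap for Slc22a4, Slc29a4 and Slc47a1.

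Slc22a5 (ENSMUSG00000018900.7), the carnitine carrier gene, lies on chromosome 11 from 53864542 to 53891660. Its normalized counts were 2801, 2252 and 2103 in the controls and 1465, 1706 and 1780 in the Kir2.1-OE pools. All Kir2.1-OE pools were below all controls. The means were 2385 ± 368 (SD, n = 3) and 1650 ± 165 (SD, n = 3), and the log2 fold change was -0.53 (standard error 0.117), under the 1.5-fold threshold. It passed that threshold with upper quartile scaling (-0.62) and when the third pool of Kir2.1-OE mice (-0.60) or of controls (-0.61) was left out. As for Slc22a3, control replicate 1 had the highest level, and without it the log2 fold change was -0.40.

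Slc22a4 (ENSMUSG00000020334.6), the ergothioneine carrier gene, is on the same strand of chromosome 11, from 53983123 to 54028090. It had 266, 237 and 268 normalized counts in the controls and 228, 278 and 195 in the Kir2.1-OE pools. The groups overlapped, and the highest value of all 6 was that of Kir2.1-OE replicate 2. The log2 fold change was -0.14 (standard error 0.157), and 52.2% of the 3204 genes of similar transcript length had a lower one.

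The monoamine carrier gene Slc29a4 (ENSMUSG00000050822.11), on chromosome 5 from 142692512 to 142722490, had 125, 106 and 75.3 normalized counts in the controls and 112, 125 and 113 in the Kir2.1-OE pools. The Kir2.1-OE pools lay inside the range of the controls. Its log2 fold change was 0.19 (standard error 0.215), with the opposite sign, -0.04, once transcript length and GC content were accounted for.

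Slc47a1 (ENSMUSG00000010122.14), the proton-coupled exporter gene, on chromosome 11 from 61343401 to 61378345, was the least abundant. It had 16.1, 43.6 and 6.11 normalized counts in the controls and 49.3, 10.99 and 46.6 in the Kir2.1-OE pools. These values rest on between 6 and 48 reads per library, and each group held both low and high pools. The log2 fold change of 0.67 had a standard error of 0.674, as large as the change itself, and moved between 0.24 and 1.67 when a library was left out.

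**Figure D2:**
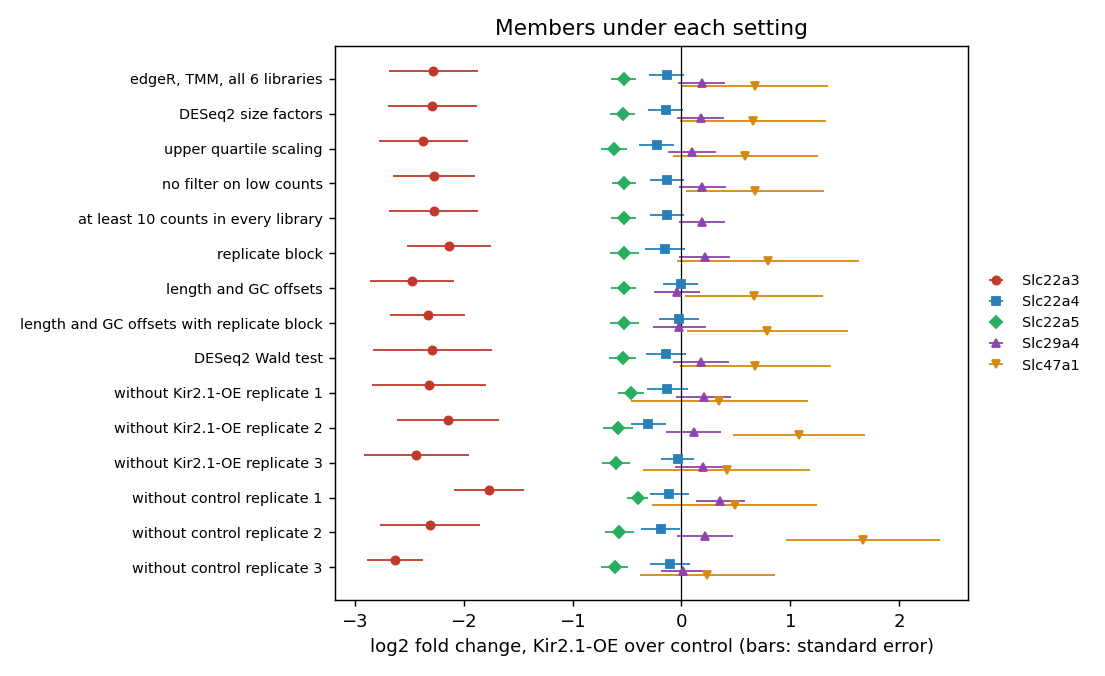
Log2 fold change of each member (horizontal axis, Kir2.1-OE over control, with its standard error) under each setting (rows), in which the scaling, the filter, the model or the libraries were changed. Slc22a3 stays between -2.63 and -1.77 and Slc22a5 between -0.62 and -0.40, whereas Slc47a1 covers 0.24 to 1.67 and is missing where 10 counts were required in every library.

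To compare the genes with each other, counts were divided by the length of the longest annotated transcript. In controls, Slc22a5 had the highest level, 779 ± 120 normalized counts per kb (SD, n = 3). Slc22a4 followed with 114 ± 7.57 per kb, Slc22a3 with 82.4 ± 47.6 per kb, Slc29a4 with 36.7 ± 9.06 per kb and Slc47a1 with 7.34 ± 6.51 per kb. Slc22a5 was above each of the others in every pool. Slc22a3 ranged from 36.5 to 132 per kb over the controls, so that it was above Slc22a4 in control replicate 1 and below it in the other controls. In each control pool it was above Slc29a4, although the ranges of the genes over the pools overlapped. With the median instead of the longest transcript length, Slc22a3 (39.5 to 142 per kb) was below Slc22a4 (350 to 395 per kb) in all controls.

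In Kir2.1-OE mice the level of Slc22a3 was 17.0 ± 3.63 normalized counts per kb (SD, n = 3), and all 3 values lay below those of Slc29a4, at 41.8 ± 2.57 per kb. Slc22a3 overlapped there with Slc47a1, which had 11.9 ± 7.15 per kb. Among 15205 genes ordered by level per kb, Slc22a3 went from between the 19.2 and 37.9 percentiles in the controls to between 8.58 and 11.3 in Kir2.1-OE mice. Of the summed level per kb of the 5 genes, Slc22a3 made up 10.8%, 8.13% and 4.19% in control replicates 1 to 3 and 2.70%, 1.76% and 2.72% in Kir2.1-OE replicates 1 to 3. Slc22a5 held between 73.2% and 78.9% of this sum in every pool, and its shares overlapped between the groups.

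**Figure D3:**
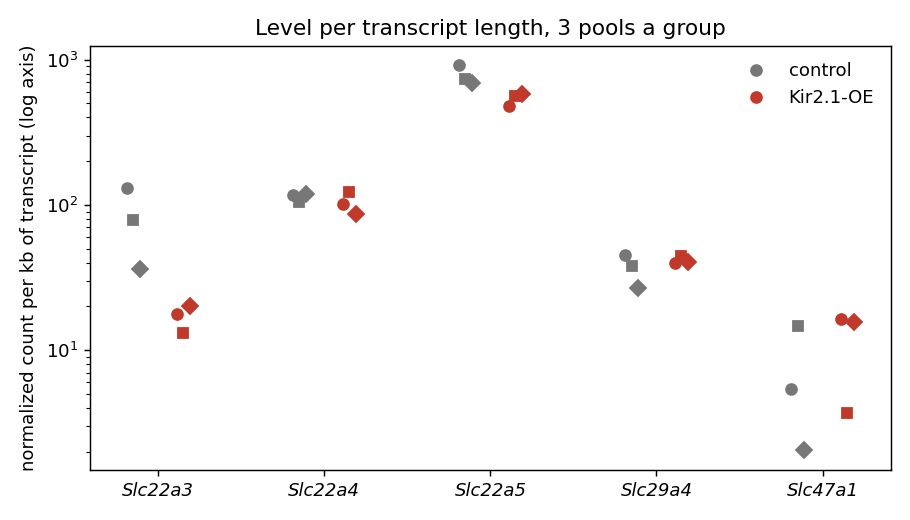
Normalized count per kb of the longest annotated transcript (vertical axis, logarithmic) for the 5 members in control (grey) and Kir2.1-OE (red) pools, with a circle, square and diamond for replicates 1, 2 and 3. Slc22a5 lies above all others, and Slc22a3 moves from 36.5 to 132 per kb in controls to 13.1 to 20.3 per kb in Kir2.1-OE pools.

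Some reads of these genes could have come from a neighbour. Slc22a5 and Slc22a21, a close relative that lies between Slc22a5 and Slc22a4, share transcript sequence. Of the 3032 words of 31 bases in the longest Slc22a5 transcript, 38.7% also occurred in transcripts of other genes, nearly all in Slc22a21, so the split of reads between the pair is uncertain. Slc22a21 had at most 99.3 normalized counts in a library, against at least 1465 for Slc22a5. The annotated end of Slc22a3 overlaps Plg, which runs on the opposite strand and ends at 12419385, and 9.57% of the words of Slc22a3 were shared with it. Plg, the gene of plasminogen, had between 1.00 and 7.41 normalized counts in every library. Slc22a4 shared 7.84% of its words, Slc47a1 0.372% and Slc29a4 none (0).

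Of the nearest tested genes around Slc22a3 on chromosome 17, those described here were not called lower. Slc22a2, which encodes the related transporter OCT2 and lies 76428 bp away, had 73.9, 78.9 and 100.5 normalized counts in the Kir2.1-OE pools and 54.2, 54.5 and 85.5 in the controls. It differed by 0.38 on the log2 scale (standard error 0.255, adjusted p = 0.234, edgeR's quasi-likelihood test), and the groups overlapped. On the other side, Map3k4, which encodes a stress-responsive kinase, was called higher at 0.68 (standard error 0.0813, adjusted p = 2.50e-04 from edgeR). Map3k4 had 0.13 and was not called with the length and GC offsets. 4732491K20Rik, also on that side, had 0.07.

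On chromosome 11, Slc22a21 was called lower (log2 fold change -0.92, standard error 0.248, adjusted p = 0.0127 from edgeR), with 60.6, 38.0 and 42.3 normalized counts in the Kir2.1-OE pools and 99.3, 78.1 and 88.6 in the controls. Of the words of Slc22a21, 33.2% were shared with other genes, nearly all with the far more abundant Slc22a5. Its counts may therefore include reads of Slc22a5, and its call is uncertain. P4ha2, the gene of a collagen prolyl hydroxylase subunit 72005 bp from Slc22a4, was also called lower, at -1.09 (standard error 0.296, adjusted p = 0.0129 from edgeR). Its controls fell apart in the same order as those of Slc22a3, with 685, 428 and 287 normalized counts. P4ha2 lost its call in the fit lacking Kir2.1-OE replicate 1 (-0.92) and kept it, at -0.71, in that lacking control replicate 1. Pdlim4, between these genes, had -0.32 and was not called. Next to Slc22a5, Rad50, which encodes a DNA repair protein, was called higher at 0.89, and Irf1, an interferon regulatory factor gene, had 0.16. Around Slc29a4, Tnrc18 (1.28) and Fbxl18 (0.65) were called higher, and neither was called with the length and GC offsets (0.14 for Tnrc18 and -0.23 for Fbxl18). Fbxl18 also lost its call with upper quartile scaling (0.56) and without Kir2.1-OE replicate 1 (0.48). Mmd2 (-0.52) and Wipi2 (0.14) were not called, but Mmd2 was called lower with the length and GC offsets (-0.594) and with upper quartile scaling (-0.61). Of the neighbours of Slc47a1, Slc47a2, Aldh3a2, Rnf112 and Mfap4, 0 were called by edgeR or DESeq2 and 2 of 4 had an unadjusted p-value under 0.05 in edgeR.

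The genes whose levels followed Slc22a3 most closely over the 6 libraries were found by the root-mean-square difference of their centred log2 counts, over 13644 other genes with a mean of at least 50. The closest was Npy, a neuropeptide gene, at a difference of 0.412 on the log2 scale, where the median over all genes was 1.21. Its normalized counts were 1397, 950 and 614 in the controls and 236, 312 and 413 in the Kir2.1-OE pools. Fam159b (0.452) and Agr3 (0.478) followed. Next were Gpnmb (0.501), a glycoprotein gene strongly expressed in pigment cells and macrophages, and Galr1 (0.506), a galanin receptor gene. S100a9 (0.526), a gene of neutrophils, Igfbpl1 (0.534) and Dct (0.544), an enzyme of melanin synthesis, completed the 8 closest. Control replicate 3 was the lowest control for all 8, and control replicate 1 was the highest control for 7 of them, Galr1 excepted, as it was for Slc22a3. These genes were picked for their likeness to Slc22a3 in the same libraries, so their own differences between the genotypes are no support for that of Slc22a3.

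**Figure D4:**
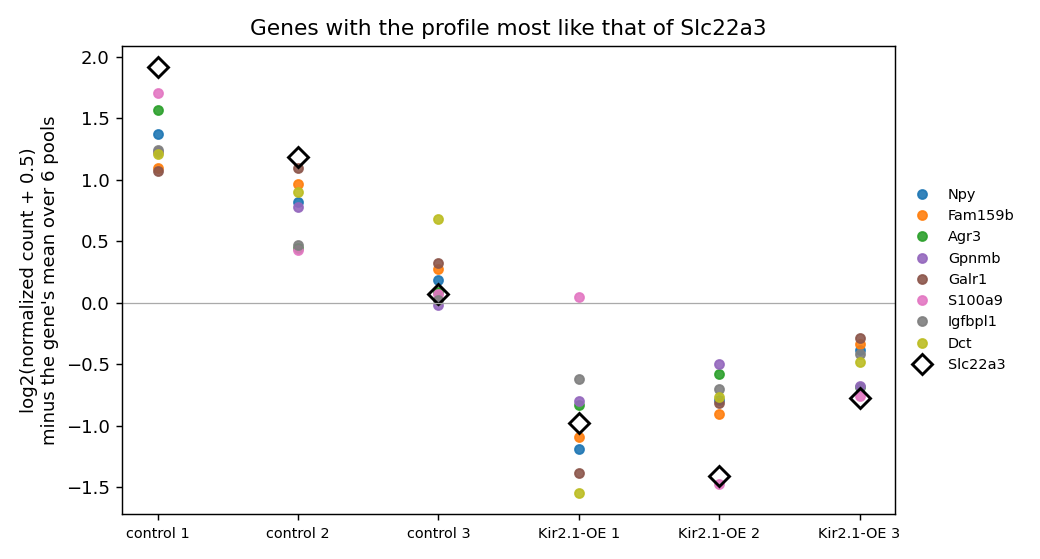
Log2(normalized count + 0.5) minus the mean of the gene over the 6 pools (vertical axis) for Slc22a3 (open diamonds) and the 8 genes closest to it (dots), by pool. All lie above 0 in control replicates 1 and 2 and below or close to 0 in the Kir2.1-OE pools, and Slc22a3 has the highest value in control replicate 1.

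Some markers of other cells were lower in Kir2.1-OE mice, as Slc22a3 was. Others were higher, with 3 spiral ganglion neuron and 4 endothelium genes called higher and 0 called lower in these lists. Over all genes 15.5% were called higher and 5.08% lower. With the length and GC offsets the endothelium genes Pecam1 (0.575) and Kdr (0.416) lost their calls, and the neuron gene Stmn2 (0.789) gained one. Pecam1 was not called with upper quartile scaling (0.561) either. Of the 5 melanocyte genes, Dct and Tyr were called lower in Kir2.1-OE mice, Tyrp1 (0.13) and Pmel (-0.485) were not called and Mlana was too low to be tested. Dct, also among the closest profiles, had -1.81 on the log2 scale (standard error 0.246) and Tyr -2.07 (standard error 0.606, adjusted p = 0.0178 from edgeR). Tyr was not called without Kir2.1-OE replicate 1 (-1.65) or 2 (-1.77), or without control replicate 1 (-1.67). Their sum over the 5 genes was 383 to 505 normalized counts in Kir2.1-OE pools and 903 to 1086 in controls, the highest in control replicate 1, and none of the 5 (0) was at zero in all libraries. Of the 5 erythrocyte genes, Hba-a1, Hbb-bt and Alas2 were called lower, with a summed level of the list of 10860 to 13790 against 17920 to 44660. Hba-a1 was not called with the length and GC offsets (-0.76), and without control replicate 1 neither Hba-a1 (-0.56) nor Alas2 (-0.48) was called. Hba-a2 (-0.855) was called lower under several alternatives, among them DESeq2 size factors (-0.87), upper quartile scaling (-0.95) and the replicate block (-0.73). Hbb-bs (-0.28) was not called. Vmo1, 1 of 2 markers of Reissner's membrane, was called lower (-0.75) except with the length and GC offsets (-0.31), with both markers summing to 6596 to 8963 against 11640 to 13290. The other marker, Slc26a7, had -0.16 and was not called. The Slc22a3 counts of control replicates 2 and 3 were 326 and 151. These controls had similar melanocyte sums (903 and 910) and erythrocyte sums (17950 and 17920). They differed in other sums, among them those of cartilage and bone (84080 and 119500) and fibrocyte genes (293100 and 361700). The sums of the spiral ganglion neuron genes were 13830 and 8586. In control replicate 1, where Slc22a3 was highest, the sums of these last 3 lists were 31270, 218500 and 11250. The part of these cell types in the difference of Slc22a3 was not tested.

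Another 73 genes were examined, from the families of the members and from organic cation, monoamine and carnitine handling. The families include carriers of organic anions and of nucleosides. Of the 73 genes, 72 were listed in the libraries and 56 were abundant enough to be tested. Of these 56, 4 were called higher and 2 lower, and their median log2 fold change was -0.12, against 15.5% called higher, 5.08% called lower and a median of 0.01 over all genes. Without control replicate 1 the counts were the same, 4 called higher and 2 lower, of 57 tested, but Bbox1 was called lower in place of Slc6a4. With the length and GC offsets 2 were called higher and 4 lower. Without these offsets and with all libraries, the carriers called higher were Slc22a8, which carries organic anions, and Slc29a2, of the nucleoside transporter family. Those called lower were Slc22a21 and Slc6a4.

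Among the other SLC22 genes, 10 of 22 were tested, 1 was called higher and 1 lower. Slc22a8, which encodes the organic anion transporter OAT3, was higher, with 99.6, 144 and 132 normalized counts in the Kir2.1-OE pools against 55.2, 75.4 and 43.8 (log2 fold change 1.10, standard error 0.252, adjusted p = 0.00559 from edgeR). The gene called lower was Slc22a21, whose counts are uncertain because it shares sequence with Slc22a5. Slc22a17 was the most abundant, between 7657 and 8762 normalized counts, and was not called (-0.07, standard error 0.0726, adjusted p = 0.423 from edgeR). With the length and GC offsets Slc22a17 had -0.57, just under the fold threshold, and was not called either. Slc22a23 had 0.51 and Slc22a18 -0.47, both under 1.5-fold and with groups that did not overlap, as for 61.6% of all genes. Slc22a23 turned to -0.15 with the length and GC offsets. The 10 genes had a median of 0.31, which turned to -0.20 under the length and GC offsets.

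Of the other 4 MATE and equilibrative nucleoside transporter genes, Slc29a2 was called higher (0.78, standard error 0.253, adjusted p = 0.0285 from edgeR), although its groups overlapped and the call was lost with the length and GC offsets (0.64) and when Kir2.1-OE replicate 1 or 3 or control replicate 2 or 3 was left out (between 0.52 and 0.79). Slc29a1, the most abundant, had 3358 to 3704 normalized counts against 4172 to 4213, a small difference of -0.23. Slc47a2, the neighbour and relative of Slc47a1, had 0.10. Slc29a3 had 0.28, which turned to -0.12 with the length and GC offsets. None of the 8 choline and thiamine transporter genes was called (0 by edgeR and by DESeq2, 1 with an unadjusted p-value under 0.05), and their log2 fold changes ran from -0.30 to 0.18.

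Of the 13 tested genes that make, take up, store or degrade monoamines, the substrates of OCT3 and PMAT, 1 was called higher and 1 lower, where 20.5% of all genes were called, and both calls were lost under some alternatives. Slc6a4, the serotonin transporter gene, was lower, with 28.7, 25.0 and 34.9 normalized counts in the Kir2.1-OE pools against 88.3, 48.2 and 51.9 in the controls (log2 fold change -1.08, standard error 0.313, adjusted p = 0.0168 from edgeR). Control replicate 1 was again the highest, and without it Slc6a4 was not called (-0.76), nor was it without Kir2.1-OE replicate 1 or 2. Hdc, which encodes the enzyme that makes histamine, was higher, with 1096, 1130 and 775 normalized counts against 562, 540 and 696 (log2 fold change 0.74, standard error 0.155, adjusted p = 0.00354 from edgeR). Hdc was not called once the length and GC offsets were applied (0.53). Of the 6 genes of monoamine breakdown, 0 were called by edgeR or DESeq2 and 1 had an unadjusted p-value under 0.05. The lowest log2 fold change among them was that of Aoc1, which encodes a diamine oxidase that degrades histamine, at -0.62.

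OCTN2 supplies carnitine, on which long-chain fatty acids enter mitochondria. Of the 7 carnitine shuttle genes, Cpt1b, the muscle form of carnitine palmitoyltransferase, was called higher, with 303, 229 and 497 normalized counts in Kir2.1-OE pools and 152, 185 and 143 in controls (log2 fold change 1.10, standard error 0.262, adjusted p = 0.00684 from edgeR). The abundant Cpt1a had 0.56 (standard error 0.0819, adjusted p = 6.50e-04 from edgeR), just under the fold threshold, and 0.29 under the length and GC offsets. Cpt1a was called without control replicate 2 (0.64). Slc25a20, which carries acylcarnitine across the inner mitochondrial membrane, had -0.41 and Crot -0.44. Both carnitine synthesis genes that were tested, Bbox1 (-0.58) and Aldh9a1 (-0.26), had Kir2.1-OE values below all controls, as 29.9% of all genes did, and were not called. Bbox1, which encodes the last enzyme of carnitine synthesis, lay at the fold threshold and was called lower under 7 of 14 alternatives, from -0.59 with DESeq2 to -0.76 without Kir2.1-OE replicate 3.

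None of the 12 genes of mitochondrial fatty acid oxidation was called (0 by edgeR and by DESeq2), whereas 10 had an unadjusted p-value under 0.05. At an adjusted p-value under 0.05 with no fold change required, 9 of them were lower and 1 was higher, where 23.5% of all genes were lower and 27.3% higher. Eci1 (-0.54, standard error 0.0736), Etfb (-0.52, standard error 0.0864) and Echs1 (-0.48, standard error 0.0684) were the lowest, and Hadha (0.21, standard error 0.0699) was the gene that was higher. With upper quartile scaling Eci1 (-0.63) and Etfb (-0.61) passed 1.5-fold and were called lower. After length and GC content were taken out, these had -0.23 and -0.18, and Echs1 (-0.62) and Hadh (-0.59) were called lower instead. In that setting 4 of the 12 genes were lower at the adjusted p-value alone and 0 higher. The median went from -0.29 to -0.18, where that of all genes went from 0.01 to -0.055. With the replicate block added to the offsets, 2 genes were lower and 0 higher at the adjusted p-value alone. Without control replicate 1, and with no offsets, these counts were 7 lower and 0 higher. The matching shares of all genes were not computed for these settings.

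**Figure D5:**
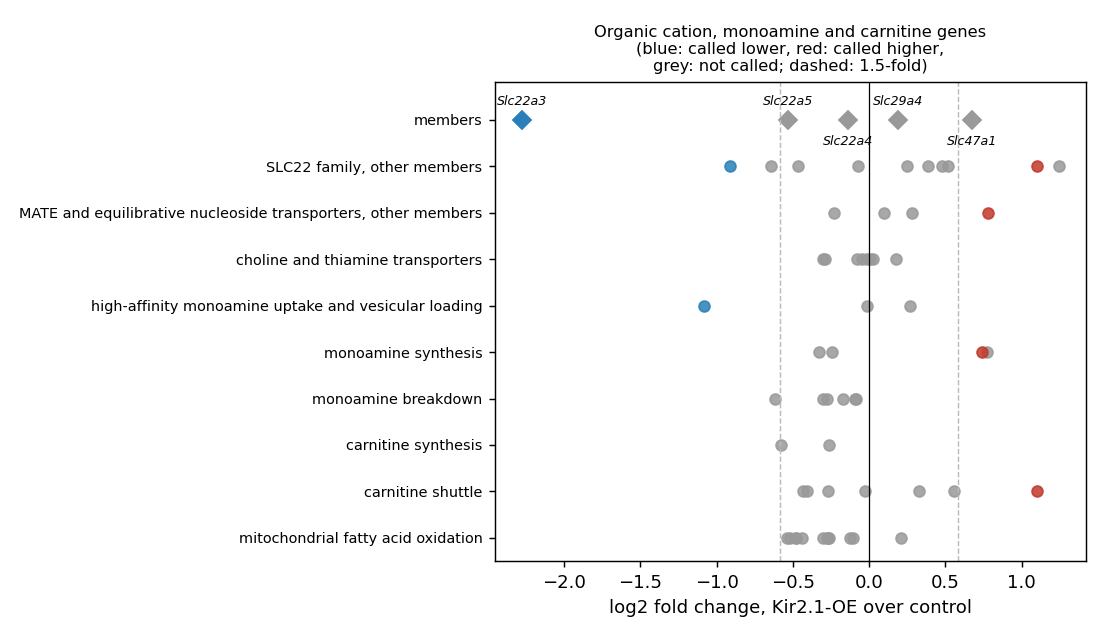
Log2 fold change (horizontal axis, Kir2.1-OE over control) of the 5 members (diamonds, top row) and of 56 other tested genes (dots, a row for each list). These are from the families of the members and from organic cation, monoamine and carnitine handling. Dashed lines mark a 1.5-fold change. Slc22a3 at -2.28 lies left of every other gene shown, of which the lowest is Slc6a4 at -1.08, and the fatty acid oxidation genes lie between -0.54 and 0.21.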

How the data were processed

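Poly(A) RNA of 6 pools, with group and replicate number taken from the sample titles, was sequenced in pairs of 150 bp reads. The authors mapped the reads to mm10 with the nf-core RNA pipeline and deposited expected counts, estimated per gene by Salmon and scaled neither for length nor for depth; tool versions, gene annotation and strand setting are not given in the sources used here. The column heading of control replicate 1 carries another number than its title, and the title was followed. Of the deposited values, 6.95% were not whole, and they were rounded.

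Counts of 24411 genes were tested with edgeR 4.0.16 in R 4.3.3 in 1 model of genotype: TMM scaling (factors 0.984 to 1.01), filterByExpr (15303 genes kept), quasi-likelihood test, Benjamini-Hochberg adjustment over all genes and a 1.5-fold threshold. The model was tested on simulated data. Lengths, positions and transcript sequences came from GENCODE vM21 (mm10), which matched 23376 symbols directly and 679 through an older symbol and left 356 unmatched. Offsets for length and GC content were loess trends (span 0.4). No 2 libraries of a group agreed within sampling noise (chi-square per degree of freedom 15.7 to 31.1).

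The members, the gene lists and the tests were chosen with earlier results of these data known. Named genes were the members; called genes of each pathway list, or its extremes; the 2 tested genes on each side of each member; the 8 closest profiles (pseudocount 0.5, mean of at least 50); and Kcnj2. Some genes that this rule names are not reported here. A few genes outside this rule were named after their values were seen, among them Plg and the list members under the fold threshold. Alternatives were DESeq2 1.42.0 (size factors, Wald test), upper quartile scaling, no filter, at least 10 counts in every library, a replicate block, the offsets alone and with the block, and each library left out. Marker lists of supporting cells, neurons, glia, marginal cells, fibrocytes, fibroblasts, endothelium and macrophages were also computed; they held 1, 3, 1, 0, 2, 2, 4 and 0 genes called higher, the supporting cell list also 1 called lower, and the lists of hair cells and of cartilage and bone 2 and 1 called higher.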

Additional observations from a re-analysis of the deposited data

How the results depend on the processing

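Over the 14 alternatives the log2 fold change of Slc22a3 lay between -2.63 and -1.77. It was called lower in each, but it was chosen on these values, so this is a description and no sign of stability. Slc22a4 and Slc29a4 were called under none. The count of members called went from 1 to 2 with upper quartile scaling and was 1 to 2 over the fits without a library; the second gene was Slc22a5 each time. All genes called went from 3143 to 1509 with the length and GC offsets and to 1325 with these and the replicate block, and the share called higher went from 75.2% to 60.4% and 59.2%; with upper quartile scaling it was 57.9% of 3275. Pathway genes called ranged from 4 to 9 over the alternatives, against 6. With the median transcript length the control levels per kb were 379 for Slc22a4, 2770 for Slc22a5 and 64.1 for Slc29a4, because the length itself changed. Under the replicate block, Slc22a3 had -2.13 and 2938 genes were called; same-numbered pools did not deviate together (correlations -0.0944, -0.215 and -0.205), so the numbers were not taken as pairs, and the block changed no call among the members. Depth limits Slc47a1 most, with as few as 6 reads in a library.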

Other observations

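Of the SLC22 genes not tested, Slc22a13, Slc22a16, Slc22a19, Slc22a26, Slc22a27 and Slc22a30 had 0 reads in all 6 libraries, which allows a share of up to 8.47e-06% of the reads in the smallest library, for counting error only. Slc22a12, Slc22a14, Slc22a20, Slc22a22, Slc22a28 and Slc22a29 had at most 4.997 normalized counts in any library. The carriers that take noradrenaline and dopamine back into nerve endings were also close to absent from the counts, with 2.05 to 11.2 normalized counts for Slc6a2 and 0 to 4.01 for Slc6a3. Dbh, which encodes the enzyme that makes noradrenaline, had at most 2.05, and Tph1, an enzyme of serotonin synthesis, 6.11 to 21.6. The vesicular monoamine transporter genes were better represented, with 71.8 to 106 normalized counts for Slc18a1 and 58.0 to 93.4 for Slc18a2, and neither was called (log2 fold changes -0.01 and 0.27).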
